A study of Mus musculus with 4 samples.

Results

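The 10 genes that encode the main apolipoproteins made by the liver were followed in 4 livers. They are Apoa1, Apoa2, Apoa4, Apoa5, Apob, Apoc1, Apoc2, Apoc3, Apoe and Apom. They were chosen by name, with earlier results of these data known, and found through their Ensembl identifiers. They are 10 of the 46603 identifiers in the count table, and all 10 were among the 13001 genes that passed the filter on low counts. Total liver RNA was sequenced from male HuR flox/flox mice on the C57BL/6 J background, which carried floxed alleles of Elavl1 (the gene of the RNA-binding protein HuR) in both groups. The 2 control mice (mice 1 and 2) had been injected in the tail vein with AAV8-TBGP-GFP, and the 2 mice labelled HuR hKO (mice 3 and 4) with AAV8-TBGP-Cre, a virus that carries Cre recombinase under the thyroxine-binding globulin promoter and so aims at hepatocytes. All 4 mice, matched for age and sex, ate a Western diet with 42% of its energy from fat and 0.1% cholesterol, with 23.1 g/L fructose and 18.9 g/L glucose in the water (WDSW), for 4 weeks. The other cell types of the liver keep the floxed gene, and the viruses of the 2 groups came from different suppliers, which cannot be told apart from Cre here.

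Apolipoproteins are the protein part of the particles that carry lipids in blood. Apob is the scaffold of very low density lipoprotein and stays with its particle, Apoa1 and Apoa2 build high density lipoprotein (HDL), and the small C proteins and Apoe move between particles and set how fast the particles are emptied by lipoprotein lipase and cleared by receptors. Hepatocytes are the main source of these mRNAs in liver, and Apoa4 is also made in the intestine. HuR is known to bind AU-rich stretches in mRNA.

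The counts on genes came to between 13032095 and 19715577 in the 4 libraries, and the TMM factors that scale them lay between 0.957 and 1.04. Elavl1 itself went against the labels: in CPM (counts scaled to the size of each library) it stood at 28.4 and 25.9 for control mice 1 and 2 and at 37.7 and 34.4 for mice 3 and 4, which are labelled HuR hKO (377, 347, 541 and 648 counts). Its log2 fold change was 0.41 (SE 0.135), with an adjusted p = 0.545 in the edgeR quasi-likelihood test. The count covers the whole gene in every liver cell. Why it stood higher in mice 3 and 4 was not tested, and neither the labels nor the deletion could be checked from it. Every direction below is one between libraries as they are labelled. The hepatocyte markers fixed for this tissue, among them Alb and Ttr, summed to between 63063 and 70321 CPM in each library. Alb alone held between 40983 and 45366 CPM, so the sum says little of the other markers. Of the 10 markers, 6 had a fitted level above and 4 below control, with log2 fold changes from -0.31 to 0.22. Of 8 enterocyte markers, 4 (Alpi, Lct, Rbp2 and Cdx2) were at 0 in every library, and the other 4 had counts, so that the list summed to between 243.2 and 358.1 CPM. In bulk RNA, fewer cells of a type and less RNA per cell cannot be told apart.

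The apolipoprotein mRNAs as a group differed little between libraries of different label and much between mice of the same label. Apom was 1.85-fold higher in the libraries labelled HuR hKO and Apoc2 1.72-fold, Apob was 0.803 times its control level, and the other 7 genes lay between these values. None of the 10 passed an adjusted p of 0.05 in the edgeR quasi-likelihood test, which 3 of all 13001 genes did (0.0231%). At an unadjusted p under 0.05, 2 of the 10 were higher (Apom and Apoc2), beside 4.04% of all genes, and 0 were lower, beside 3.39%. The threshold used in the study's own transcriptome comparison, a fold of at least 1.8 with an unadjusted p under 0.05, was met upward by 1 of the 10 (Apom), beside 1.21% of all genes. Of the 10, 9 had a fitted level above the control level, all but Apob, where 50.3% of all genes did. The median log2 fold change of the 10 genes was 0.15, and that of all genes tested was 0.0020. It moved with each mouse left out, to 0.023 without control mouse 1, 0.35 without control mouse 2, 0.28 without mouse 3 and 0.052 without mouse 4. With offsets for GC content and length the median of the 10 was 0.034 and that of all genes tested -0.0019. With those offsets 6 of the 10 had a fitted level above control.

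**Figure D1:**
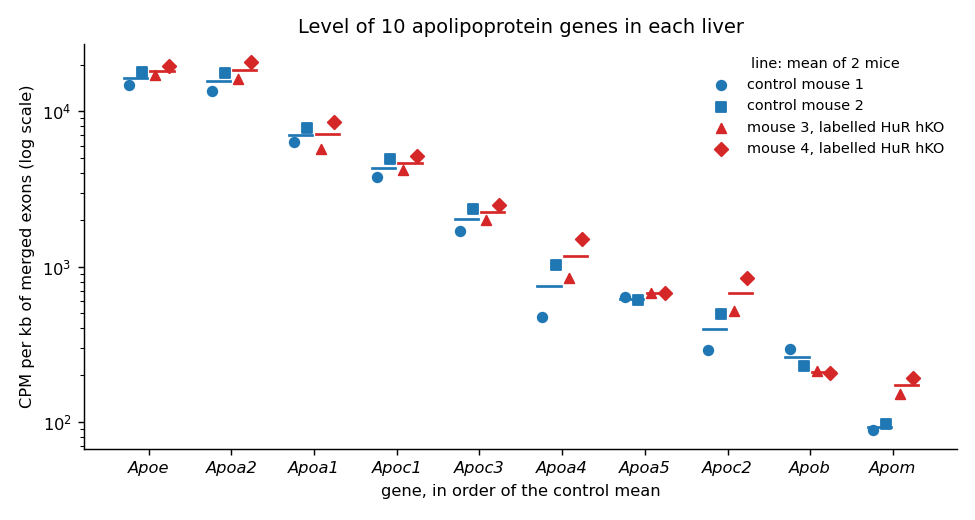
Level of each of the 10 apolipoprotein genes in each of the 4 livers, in CPM per kb of merged exons on a log axis. Points are mice and lines are means of 2 mice. The points of Apom separate the groups, with means of 92.6 CPM per kb in control and 171.6 in the libraries labelled HuR hKO, while those of Apoe, Apoa2 and Apoa1 interleave.

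Apom carries sphingosine 1-phosphate on HDL, through a pocket that holds the lipid, and stays bound to the particle by a signal peptide that is not cleaved off. It had 89.3 and 98.4 CPM in the control mice and 153.8 and 193.8 CPM in the mice labelled HuR hKO (1186, 1318, 2205 and 3651 counts). Both of the latter were above both controls, and the difference was much wider than that between mice of one label. The log2 fold change was 0.89 (SE 0.153), with an unadjusted p = 0.000374 and an adjusted p = 0.137 in the edgeR quasi-likelihood test. The adjusted p was 0.000448 with the DESeq2 Wald test, 0.000823 with edgeR's exact test and 0.00243 with no filter on low counts, so Apom passed 0.05 under 3 of the 14 alternatives, and over all of them it ran from 0.000448 to 0.738. The log2 fold change stayed between 0.71 and 1.03 when each mouse was left out in turn. With offsets for GC content and for the length of the transcript it was 0.75, below the 1.8-fold threshold.

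Apoc2 is the activator that lipoprotein lipase needs to cut triglycerides, and Apoc3 and Apoc1 are its small relatives that slow this step or the uptake of remnants. Apoc2 had 236.9 and 403.9 CPM in control and 418.7 and 683.5 CPM in mice 3 and 4. The groups did not overlap, but control mouse 2 and mouse 3 were nearly level, and each group spread over more than the gap between them. The log2 fold change was 0.78 (SE 0.292), with an unadjusted p = 0.0273 and an adjusted p = 0.587 in the edgeR test. It came to 0.43 when control mouse 1 was left out, to 0.39 when mouse 4 was, and to 1.22 when control mouse 2 was. Apoc3 had 1728 and 2369 CPM in control and 2013 and 2547 CPM in the libraries labelled HuR hKO. Apoc1 had 2812 and 3656 CPM against 3101 and 3833 CPM. For both, the groups overlapped, with log2 fold changes of 0.15 (SE 0.211) for Apoc3 and 0.10 (SE 0.204) for Apoc1.

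Apoa4, which the liver is known to make more of when it holds more fat, had the widest spread of the 10. It had 860.5 and 1868 CPM in control and 1536 and 2743 CPM in the libraries labelled HuR hKO. The 2 control mice differed by 1.12 on the log2 scale, more than the fitted log2 fold change of 0.65 (SE 0.377, adjusted p = 0.737 in the edgeR test), and mouse 3 lay below control mouse 2. Without control mouse 2 the log2 fold change was 1.32, and without mouse 4 it was 0.17. Gm10680, an antisense gene that overlaps Apoa4, had 0.753 and 7.24 CPM in control and 3.77 and 7.49 CPM in the others, so its low and high libraries were those of Apoa4. How the counting used strand was not given in the sources used here, so reads of the pair may not be separable. Apoa4 is also an intestinal gene, and the 8 enterocyte markers summed to 243.2 CPM in control mouse 1, 327.8 in control mouse 2, 298.2 in mouse 3 and 358.1 in mouse 4, the same order over the mice as Apoa4. Of the 8, only 2 (Fabp2 and Anpep) passed the filter on low counts, and 4 were at 0 in every library. The sum therefore rests almost wholly on Fabp2 and Anpep. Control mouse 1 was lowest and mouse 4 highest for 13.8% of all genes tested. The part of intestinal cells in the level of Apoa4 was not tested.

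Apoa5, which raises the clearance of triglycerides by lipoprotein lipase, varied least between mice of one label. It had 1596 and 1534 CPM in control and 1712 and 1697 CPM in the libraries labelled HuR hKO, so the groups did not overlap. The log2 fold change was only 0.12 (SE 0.153, adjusted p = 0.888 in the edgeR test). Gaps of this kind are common here: the groups did not overlap, with the libraries labelled HuR hKO higher, for 19.3% of all genes tested and for 3 of the 10 (Apoa5, Apoc2 and Apom).

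Apob was the one gene with a fitted level below control. It had 4083 and 3189 CPM in control and 2975 and 2867 CPM in mice 3 and 4. The groups did not overlap, as for 18.8% of all genes in this direction, but control mouse 2 was nearer to the other group than to control mouse 1. The log2 fold change was -0.32 (SE 0.188, adjusted p = 0.749 in the edgeR test), and it was -0.14 without control mouse 1 and -0.48 without control mouse 2. Apob also stands apart by sequence, with the longest coding region of the 10 (13515 bases, 4505 residues) and the lowest GC content, 43.5% of its longest transcript, against a median of 56.1% over the 10. With offsets for GC content and length its log2 fold change was -0.21.

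The structural proteins of HDL and Apoe, a ligand by which remnants are taken up, gave large counts and no difference beyond the spread between mice. Apoa1 had 7902 and 9609 CPM in control and 7093 and 10621 CPM in the libraries labelled HuR hKO, so that mouse 3 was the lowest and mouse 4 the highest of all. Apoa2 had 7268 and 9521 CPM against 8692 and 11105 CPM. Apoe had 31803 and 38617 CPM against 36501 and 41627 CPM. Their log2 fold changes were 0.02 (SE 0.245), 0.24 (SE 0.227) and 0.15 (SE 0.238) in that order. Without control mouse 1 that of Apoa2 was 0.043 and that of Apoe 0.0036. That of Apoa1 took the other sign without control mouse 1 (-0.13) or mouse 4 (-0.30), with offsets for GC content and length (-0.14) and with limma-voom (-0.01).

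**Figure D2:**
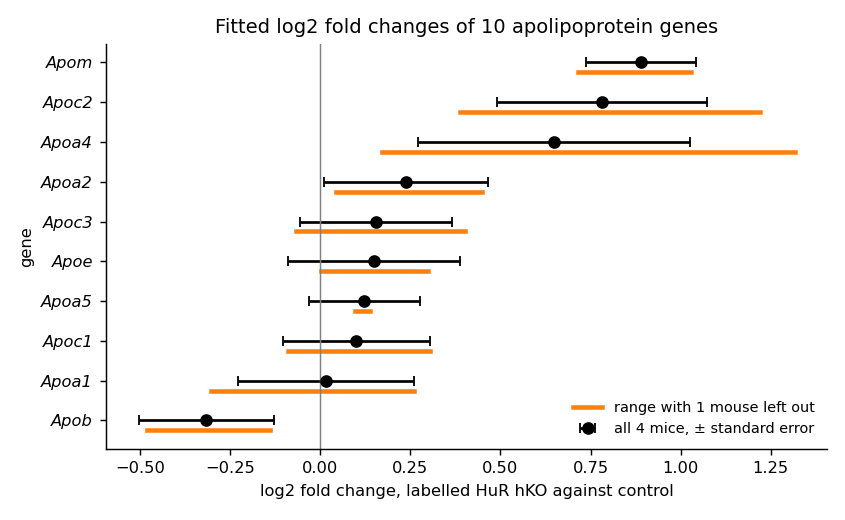
Fitted log2 fold change of each of the 10 genes, libraries labelled HuR hKO against control, with its standard error (black), and the range of the fitted values when each mouse is left out in turn (orange). The bars of Apom, from 0.71 to 1.03, stay far from 0, those of Apoc2 and Apoa4 are wide but above 0, and those of Apoa1, Apoc1 and Apoc3 cross it.

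The spread between mice had a shape that most of these genes shared. Of the 10, 7 (Apoa2, Apoa4, Apoc1, Apoc2, Apoc3, Apoe and Apom) were lowest in control mouse 1 and highest in mouse 4, an order that 13.8% of all genes had and that was picked after the values were seen. The 2 control mice differed by a median of 0.37 on the log2 scale over the 10 genes, against 0.20 over all genes tested, and mice 3 and 4 by 0.34 against 0.18. Mouse 4 also had the deepest library and the largest share of mitochondrial counts (7.64%, against 6.56% to 7.32% in the others), and the part of either in this order was not tested. The 10 genes took 5.95% of all counts in control mouse 1 (95% Wilson interval 5.94 to 5.97%), 6.97% in control mouse 2 (6.96 to 6.98%), 6.66% in mouse 3 (6.65 to 6.68%) and 7.44% in mouse 4 (7.43 to 7.46%). Those intervals cover counting error only. The means were 6.46% ± 0.720 (SD, n = 2) and 7.05% ± 0.551 (SD, n = 2), with an exact two-sided permutation p = 0.667, where the smallest p that 2 against 2 mice allow is 0.333.

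Within the pool of these 10 mRNAs, Apoe took more than all others together, between 53.4% and 56.9% of their counts in each library. The share of Apob was 6.99% in control mouse 1, 4.50% in control mouse 2, 4.63% in mouse 3 and 3.68% in mouse 4. The share of Apoc2 was 0.406% and 0.570% in control and 0.652% and 0.877% in the libraries labelled HuR hKO. The share of Apom was 0.153% and 0.139% in control and 0.240% and 0.249% in the others, so that Apom was the one of these 3 whose gap between groups was wide beside the spread within them.

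Ratios between 2 genes in one library do not depend on scaling, and 9 pairs were compared. Apom to Apoa1, the lipid-binding protein against the main protein of HDL, was 0.0113 and 0.0102 in control and 0.0217 and 0.0182 in the libraries labelled HuR hKO, a difference of 0.89 in log2. Apoc2 to Apoc3, the activator against the inhibitor of lipoprotein lipase, was 0.137 and 0.171 in control and 0.208 and 0.268 in the others, a difference of 0.63. Apoa4 to its cluster mate Apoa1 was 0.109 and 0.194 in control and 0.217 and 0.258 in the others, a difference of 0.70 that was 0.28 without control mouse 1 and 1.12 without control mouse 2. Groups did not overlap, upward, for these 3 pairs and for Apoc2 to Apoe (difference 0.64) and Apoa2 to Apoa1 (0.25), each with the smallest exact permutation p that 2 against 2 mice allow (p = 0.333, adjusted over the 9 pairs 0.6). With each mouse left out in turn, the difference ran from 0.76 to 1.01 for Apom to Apoa1, from 0.44 to 0.81 for Apoc2 to Apoc3, from 0.38 (without mouse 4) to 0.90 (without mouse 3) for Apoc2 to Apoe, and from 0.13 (without mouse 3) to 0.36 (without mouse 4) for Apoa2 to Apoa1. Groups overlapped for Apoc3 to Apoa1, Apoa5 to Apoa1, Apoc1 to Apoe and Apob to Apoa1. Apoc1 to Apoe was nearly the same in all 4 livers, at 0.0884 and 0.0947 in control and 0.0850 and 0.0921 in the others. The pairs share genes, so they are not separate pieces of evidence.

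**Figure D3:**
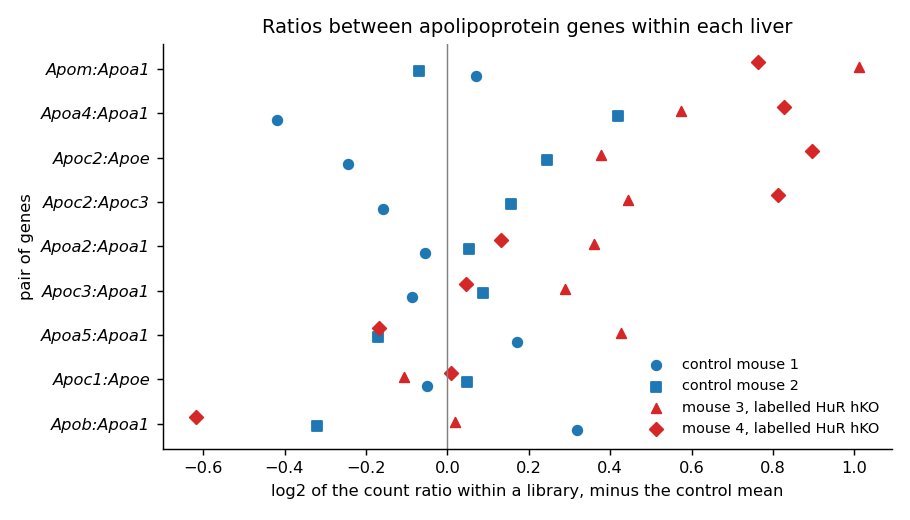
Log2 of the ratio of counts between 2 apolipoprotein genes within each library, minus the mean of the 2 control libraries, for the 9 pairs. Points are mice. For Apom to Apoa1 the control points lie close together and both others sit far to the right, while for Apob to Apoa1 and Apoa5 to Apoa1 the groups interleave.

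Levels of different genes were compared per kb of merged exons. In control the order was Apoe (16469 ± 2254 CPM per kb, SD, n = 2), Apoa2 (15632 ± 2968), Apoa1 (7084 ± 976.3), Apoc1 (4347 ± 801.6) and Apoc3 (2020 ± 447.1), followed by Apoa4 (751.6 ± 392.4), Apoa5 (620.6 ± 17.6), Apoc2 (394.1 ± 145.2), Apob (261.0 ± 45.4) and Apom (92.6 ± 6.38). The ranges of neighbours in this order overlapped for Apoe and Apoa2, for Apoa4 and Apoa5, and for Apoc2 and Apob. In the libraries labelled HuR hKO the means of Apoa2 (18432 ± 3177) and Apoe (18271 ± 1695) stood the other way round, and so did Apoc2 (677.9 ± 230.3) and Apoa5 (675.7 ± 4.12), but both pairs overlapped. With the longest transcript as the length, Apoe was above Apoa2 in both groups without overlap (25007 against 16206 CPM per kb in control and 27744 against 19108 in the others). Apom was the lowest of the 10 in both groups. Its rank per length among all genes was 544 and 538 in control and 338 and 308 in the libraries labelled HuR hKO.

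Most of these genes lie in groups along the chromosomes (GRCm38, GENCODE M21). Apoa1, Apoc3, Apoa4 and Apoa5 share 43.34 kb (chr9:46228580-46271919), of which Apoc3 alone is on the minus strand. Apoc2, Apoc1 and Apoe share 27.61 kb (chr7:19671579-19699188) with Apoc4, all on the minus strand. Apoa2 (chr1:171225054-171226379), Apob (chr12:7977648-8016835) and Apom (chr17:35128997-35132050, minus strand) stand alone. Cluster mates did not share one value: on chromosome 9 the log2 fold changes ran from 0.02 for Apoa1 to 0.65 for Apoa4, and on chromosome 7 from 0.10 for Apoc1 to 0.78 for Apoc2. Apoc4, whose 3′ end lies 142 bases from the start of Apoc2, had 470.3 and 670.8 CPM in control and 627.2 and 970.5 CPM in the others, with a log2 fold change of 0.49 (SE 0.245, adjusted p = 0.697 in the edgeR test). The groups overlapped for Apoc4, and its log2 fold change with a mouse left out ran from 0.14 (without mouse 4) to 0.77 (without control mouse 2). A same-strand gene model, Gm44805, overlaps Apoc2 and has no row in the table used here, and reads shared between them cannot be told apart.

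Within 50 kb of the 10 genes lay 33 other annotated genes that had a row of counts, of which 24 were tested. Of the 24, 15 had a fitted level above control, beside 50.3% of all genes, and at an unadjusted p under 0.05 1 was higher and 1 lower, beside 4.04% and 3.39% of all genes. Zpr1, which encodes a zinc finger protein beyond the Apoa5 end of its cluster, had a lower fitted level in mice 3 and 4, with 63.7 and 77.3 CPM in control and 53.2 and 47.0 CPM in the others and a log2 fold change of -0.49 (SE 0.147, adjusted p = 0.482 in the edgeR test). Gpank1, close to Apom, was higher, with 6.32 and 6.57 CPM against 8.23 and 9.50 CPM and a log2 fold change of 0.46 (SE 0.197, adjusted p = 0.654). Of the 8 tested genes near Apom, 7 had fitted levels above control, where 50.3% of all genes did (median 0.23 in log2 fold change), and each was below that of Apom.

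**Figure D4:**
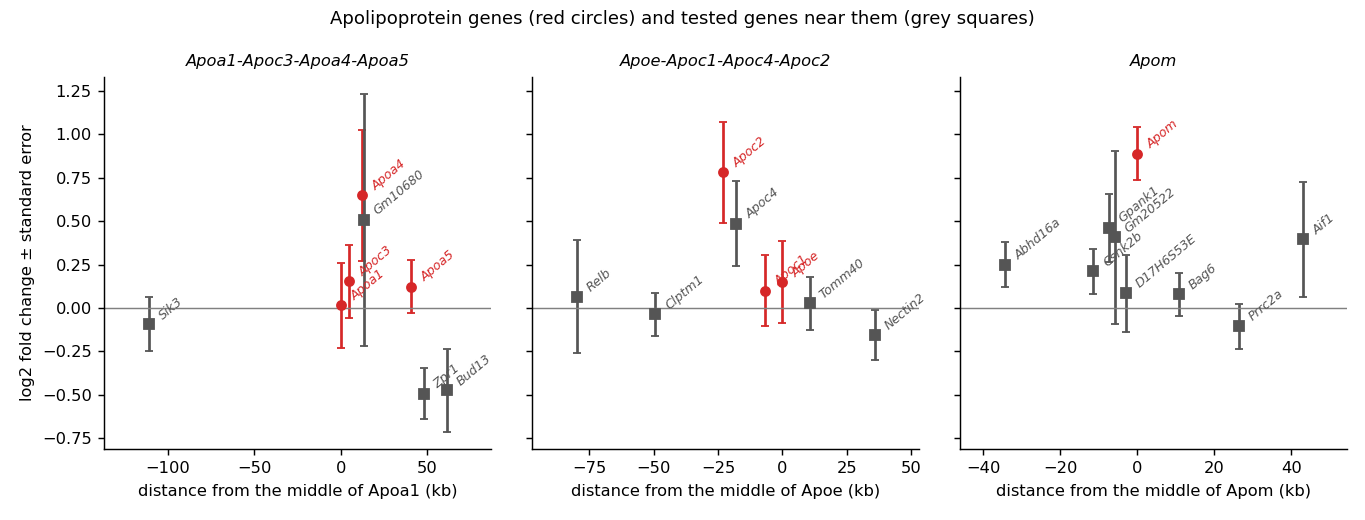
Log2 fold change with its standard error for the apolipoprotein genes (red circles) and for tested genes within 50 kb of them (grey squares), by distance from the middle of Apoa1, Apoe or Apom. Apom stands above all 8 of its tested neighbours, the points of Apoc2 (0.78) and Apoc4 (0.49) lie above those of Apoe (0.15) and Apoc1 (0.10) with wide standard errors, and Zpr1 and Bud13 lie below 0 next to Apoa5.

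The genes whose levels followed that of Apom most closely over the 4 libraries, by Euclidean distance between centred log2 CPM among 11158 genes with enough counts, were Fkbp11 (distance 0.0464), Loxl3 (0.0919) and Gm19619 (0.111). Fkbp11, a prolyl isomerase of the endoplasmic reticulum, had 8.35 and 9.11 CPM in control and 14.0 and 18.4 CPM in the libraries labelled HuR hKO. Loxl3, of the lysyl oxidase family, rested on few reads, 17 and 19 counts in control and 33 and 50 in the others. Gm19619 is a long intergenic noncoding RNA with 3.39 and 3.58 CPM against 5.79 and 7.86 CPM. Each distance rests on 4 libraries.

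The promoters of the 2 genes with an unadjusted p under 0.05 are given, 250 bases before to 50 bases after the start (RefSeq, GRCm38.p6, in the direction of the gene), with motif matches in capitals. The first is at chr17:35131752-35132051 and the second at chr7:19677892-19678191, both on the minus strand.
Apom: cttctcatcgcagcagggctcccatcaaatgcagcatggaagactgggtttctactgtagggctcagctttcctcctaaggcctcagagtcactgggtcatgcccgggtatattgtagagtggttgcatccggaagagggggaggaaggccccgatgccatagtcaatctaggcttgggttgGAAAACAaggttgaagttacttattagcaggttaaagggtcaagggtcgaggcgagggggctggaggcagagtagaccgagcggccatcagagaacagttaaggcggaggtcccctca
Apoc2: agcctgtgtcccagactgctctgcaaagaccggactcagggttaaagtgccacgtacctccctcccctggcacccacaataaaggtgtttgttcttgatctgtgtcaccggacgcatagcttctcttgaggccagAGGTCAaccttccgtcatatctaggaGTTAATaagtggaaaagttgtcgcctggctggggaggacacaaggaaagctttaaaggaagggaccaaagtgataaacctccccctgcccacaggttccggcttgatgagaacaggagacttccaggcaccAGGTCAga

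A set of 6 motifs was searched on both strands. The general promoter elements were the TATA box, searched by the letters TATAAA, and the box that binds nuclear factor Y, searched by the letters CCAAT. For the liver factor HNF1 1 arm of its palindromic site was searched, with the letters GTTAAT. Nuclear receptors, the family of Ppara, bind arms with the letters AGGTCA, which were searched singly. The receptor HNF4 was searched by the core of its site, CAAAGTCC. The FOXA factors, Foxa1 among them, were searched by the core of theirs, TGTTTNC. No motif holds another. The capitals in Apom mark 1 match to TGTTTNC, read on the opposite strand and 68 bases before the start. Those in Apoc2 mark AGGTCA at 115 bases before and 42 bases after the start and GTTAAT at 89 bases before it. RefSeq promoters were matched for 8 of the 10 genes in 12 windows, since some have several starts. TGTTTNC was in 7 of the 12 windows and in 20.5% of all 32851 promoters, TATAAA in 5 windows and 13.6%, GTTAAT in 2 windows and 7.10%, AGGTCA in 2 windows and 16.3%, CCAAT in 2 windows and 37.4%, and CAAAGTCC in 0 windows and 1.42%. Windows of 1 gene can overlap, as those of Apoa5 do, so a match can be counted more than once. By gene, TGTTTNC was in 6 of the 8, TATAAA in 4, GTTAAT and AGGTCA in 2 each, CCAAT in 1 and CAAAGTCC in 0. A match describes letters only.

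The 3′ ends of these mRNAs were short and held none of the classical AU-rich pentamers that HuR is known to bind. In the transcript with the longest coding region of each gene, the 3′ untranslated region was between 64 bases (Apoa1) and 1185 bases (Apoa5) long, with a median of 175.5 bases, against 964.5 bases over 11790 tested protein-coding genes. The pentamer ATTTA was in 0 of the 10, where 65.5% of those genes held it, and so did 22.4% of the 2333 genes whose region had at most 300 bases. The letters TTTTT were in the region of Apoe alone, with 2 matches that may overlap. They were in 74.0% of those tested protein-coding genes and in 30.2% of the genes whose region had at most 300 bases. The median share of A and T was 47.1% for the 10 and 55.4% for all. Introns and coding regions were not searched.

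Genes that load, receive or remodel these particles were counted from 9 lists with 139 genes, of which 128 were tested. Of the 128, 11 had an unadjusted p under 0.05, 9 of them higher and 2 lower (over all genes, 4.04% were higher and 3.39% lower), and 0 had an adjusted p under 0.05 in the edgeR quasi-likelihood test (Lpl alone had one with the DESeq2 Wald test, with edgeR's exact test, with no filter on low counts and without control mouse 1, and Lpl and Foxa1 had one without control mouse 2). Of 21 genes for assembly and secretion, the fit placed 12 above and 9 below control, and their median was 0.0091 in log2 fold change. Of these, 1 had an unadjusted p under 0.05. It was Tm6sf2, a membrane protein needed to load lipid onto Apob particles, with 21.9 and 21.9 CPM in control and 29.9 and 31.1 CPM in the libraries labelled HuR hKO (log2 fold change 0.47, SE 0.130, adjusted p = 0.427). Of the 4 genes for Apob mRNA editing, A1cf (log2 fold change -0.023) and Rbm47 (-0.00050) were level with control and Apobec1, the editing enzyme, was at -0.37 (SE 0.267). Each of these 3 took the other sign with a mouse left out, up to 0.20, 0.19 and 0.019 in that order. Syncrip, an RNA-binding protein, had 41.8 and 35.5 CPM against 31.3 and 27.5 CPM (log2 fold change -0.39, SE 0.147, adjusted p = 0.587). Of 10 tested other apolipoproteins out of 20, which include Apoc4, 0 had an unadjusted p under 0.05, and their median was 0.03.

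Of 13 tested receptors that take up the particles and their regulators, 10 had a fitted level above control, beside 50.3% of all genes. Their median was 0.20 in log2 fold change, and 3 were higher at an unadjusted p under 0.05, beside 4.04% of all genes. The number at that threshold was 4 without control mouse 1, 2 without control mouse 2 or mouse 4, and 1 without mouse 3. Lsr, a receptor for remnants and 1 of these 3, had 129.7 and 124.0 CPM in control against 192.3 and 179.8 CPM in mice 3 and 4, a log2 fold change of 0.55 (SE 0.127, adjusted p = 0.305 in the edgeR test). Both of the latter were above both controls.

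Lipoprotein lipase and its regulators, the targets of Apoc2, Apoc3 and Apoa5, were split, 4 above and 4 below control. Lpl, the lipase itself, had 21.6 and 27.5 CPM in control and 66.1 and 52.4 CPM in mice 3 and 4, a log2 fold change of 1.27 (SE 0.176, adjusted p = 0.0920 in the edgeR test). Gpihbp1, which anchors the lipase on endothelium, had 17.6 and 19.5 CPM against 23.6 and 25.4 CPM, a log2 fold change of 0.40 (SE 0.141, adjusted p = 0.574). Markers of cells other than hepatocytes stood beside these: the 12 Kupffer cell and macrophage markers summed to 280.9 and 295.6 CPM in control and 331.7 and 309.3 CPM in the others, and 9 of the 12 had fitted levels above control. The 8 endothelial markers summed to 234.0 and 207.6 CPM against 267.0 and 235.0 CPM, with 7 of 8 above control. The 9 stellate cell markers summed to 231.3 and 214.6 CPM against 234.4 and 291.0 CPM, with 7 of 9 above control and 2 higher at an unadjusted p under 0.05. The 7 cholangiocyte markers summed to 52.9 and 27.5 CPM against 39.6 and 49.9 CPM, with 1 of the 4 tested higher at that threshold. The 11 lymphocyte and neutrophil markers summed to 3.01 and 7.47 CPM against 7.60 and 7.01 CPM, with Ly6g at 0 in every library and 3 markers tested. Over all genes tested, 50.3% had fitted levels above control, and 4.04% were higher at that threshold in the edgeR quasi-likelihood test. The lowest log2 fold change was -0.92 among the Kupffer cell and macrophage markers, -0.031 among the endothelial and -0.83 among the stellate cell markers. It was -2.38 among the tested cholangiocyte markers (median -0.23) and 0.19 among the tested lymphocyte and neutrophil markers. The part of these cells in the values of Lpl and Gpihbp1 was not tested.

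Transcription factors known to act on these promoters were split too, 15 above and 14 below control of 29, with a median of 0.05. Ppara, the fatty acid receptor, had 66.7 and 64.7 CPM in control and 74.5 and 105.6 CPM in the libraries labelled HuR hKO (log2 fold change 0.46, SE 0.175, adjusted p = 0.603), and 0.18 in log2 without mouse 4. Foxa1 had 33.0 and 15.4 CPM in control against 13.9 ± 1.52 CPM (SD, n = 2) in the others (log2 fold change -0.80, SE 0.312, adjusted p = 0.612), and -0.16 without control mouse 1, which held the highest level. Of the 10 genes that make, carry or receive sphingosine 1-phosphate beside Apom, 7 were above control, beside 50.3% of all genes, with a median of only 0.04. One of them, S1pr2, a receptor for sphingosine 1-phosphate, had 5.34 and 4.70 CPM against 8.72 and 6.58 CPM (log2 fold change 0.60, SE 0.235, adjusted p = 0.616), and 0.37 in log2 without mouse 3. In the 11 genes of HDL formation and remodelling, 6 above and 5 below control, 0 had an unadjusted p under 0.05. Among 22 other plasma proteins of the liver, 13 were above control with a median of 0.04, and Serpina6, which carries corticosteroids, had 199.1 and 256.8 CPM against 319.3 and 370.0 CPM (log2 fold change 0.60, SE 0.167, adjusted p = 0.441).

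**Figure D5:**
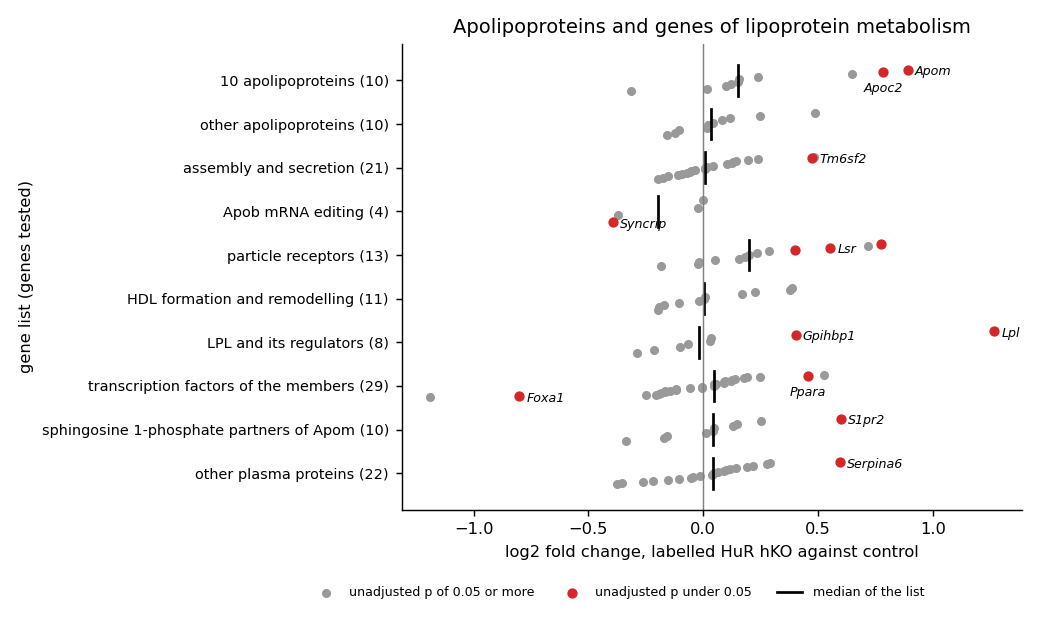
Log2 fold change of the 10 apolipoprotein genes and of each tested gene in 9 lists, libraries labelled HuR hKO against control. Points are genes, in red those with an unadjusted p under 0.05 in the edgeR quasi-likelihood test (those described in the text are named), and the black line is the median of a list. The median of the 10 apolipoproteins is 0.15 and that of the receptors 0.20, medians between lists were not tested, and Lpl is the highest point.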

How the data were processed

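Total RNA of whole liver from 4 mice was sequenced, 2 labelled control and 2 labelled HuR hKO, each counted as 1 replicate. The authors deposited counts of reads per gene as whole numbers without normalization, 1 column for each mouse. The submitters' processing notes name RSEM and GRCm38, without a version or a role, and alignment, strand and the treatment of shared reads were not given in the sources used here. All columns were matched to mice, and 0 were left out. Of 46603 identifiers, 46005 had a symbol and 46091 were in the GENCODE M21 annotation of GRCm38.

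Counts were scaled with TMM factors and tested in edgeR 4.0.16 (quasi-likelihood test) in R 4.3.3, after filterByExpr with a minimum of 10 counts and a total of 15, with Benjamini-Hochberg adjustment over 13001 genes. A count of 0 would allow up to 3 counts, or 0.159 to 0.226 CPM. Every pair of libraries differed beyond sampling noise (chi-square divided by its degrees of freedom, 21.2 to 32.7). No label says that the mice came from separate litters or cages. Single values per library were compared by an exact permutation test in scipy 1.17.1, and figures were drawn with matplotlib 3.10.9.

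The members and the gene lists were chosen with earlier results of these data known. Genes named are the 10 members, Elavl1, genes within 50 kb, the 3 genes most like the member with the smallest p, and up to 4 genes of a list with an unadjusted p under 0.05 and groups that do not overlap. Some genes that this rule covers are not reported here. Alternatives were other scalings, other filters, the DESeq2 1.42.0 Wald test, edgeR's exact test, limma-voom 3.58.1, a robust fit, offsets for GC content and length, and leaving out each mouse. Counts of 12763 to 12800 genes were simulated for this comparison, with 200 genes changed in each of 5 runs. The test recovered 62.8% of those changed 2-fold and 90.2% of those changed 4-fold, and 9.57% of its calls were false. The simulation took the spread of each gene as fitted here and set the number and size of the changes. Its shares therefore do not give the power in the real libraries, where 3 of 13001 genes were called.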

Additional observations from a re-analysis of the deposited data

How the results depend on the processing

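No paired analysis was possible because the mice are numbered 1 to 4 across the groups, so that the groups share no number. A mouse left out leaves 1 in its group, which is then assumed to vary like the other group. Apoa2, Apoa4, Apoa5, Apob, Apoc2, Apoe and Apom kept their direction under all 14 alternatives.

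The number of members called at an adjusted p of 0.05 was 1 (Apom) with no filter on low counts, with the DESeq2 Wald test and with edgeR's exact test, against 0. Over all genes, calls rose as well, from 3 to 161, 85 and 120, and the cause was not tested. Members with an unadjusted p under 0.05 numbered 4 with no filter, 1 with the Wald test and 1 with the robust fit, against 2, and between 1 and 3 with a mouse left out. Members past 1.8-fold with an unadjusted p under 0.05 numbered 0 with offsets for GC content and length, against 1, and between 0 and 3 with a mouse left out (0 without control mouse 1 or mouse 4, 3 without control mouse 2 or mouse 3). The 11 list genes with an unadjusted p under 0.05 became 17 with no filter, and between 8 and 17 with a mouse left out (17 without control mouse 2). The median log2 fold change of the members lay between 0.023 and 0.35 with a mouse left out, and it was 0.034 with the offsets, against 0.15. Members with a fitted level above control numbered 6 with the offsets, against 9.

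The log2 fold change changed sign for Apoa1 with limma-voom (-0.011) and with the offsets (-0.14), where Apoc1 (-0.073) and Apoc3 (-0.0069) did so too. With a mouse left out, Apoa1 ran from -0.30 to 0.26, Apoc1 from -0.090 to 0.30 and Apoc3 from -0.068 to 0.40. The log2 ratio difference of Apoa5 to Apoa1 ran from -0.17 to 0.43, that of Apoc1 to Apoe from -0.11 to 0.0093, and that of Apob to Apoa1 from -0.62 to 0.020.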
